A study of Mus musculus with 12 samples.

Results

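The genes described here are 9 mouse genes known as targets of the nuclear receptor PPAR alpha or as genes of the fasting response, namely Cyp4a10, Cyp4a14, Acot1, Acot2, Cpt1a, Ehhadh, Pdk4, Fgf21 and Angptl4. They are the 9 rows with these gene names among the 54532 genes of the count table. The set was selected on earlier results of these same libraries, in which liver and fat of hHKDC1 OE mice were compared with null mice, so the differences between null and hHKDC1 OE below are a description and carry no p-value for any member. RNA was sequenced from liver and subcutaneous fat of male mice in 4 groups of 3 libraries, 12 in all. Null mice received an adeno-associated virus, AAV8, with the thyroxine-binding globulin promoter and no HKDC1, and hHKDC1 OE mice received the same kind of vector carrying full-length human HKDC1, a protein of the hexokinase family. That promoter drives expression in hepatocytes. Both groups were injected at 10 weeks of age, were then given a low-fat diet, and were studied 16 weeks after injection. The labels of hHKDC1 OE libraries 2 and 3 of each tissue read overexpression in the treatment field and knockout in the description, and they are counted here as hHKDC1 OE. The sources used here do not state a fast before the tissue for RNA was taken, although a fast of hours is given for livers used in other assays. They also do not state whether a liver and a fat library with the same number came from one mouse. P-values set a difference between groups against the spread between these libraries, and contrasts across tissues treat all libraries as independent.

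Counts on genes totalled 15496019 to 17935786 per liver library and 15663540 to 19954971 per fat library. Values are given as CPM, counts scaled to a common library total within a tissue, and 1 CPM stood for 15.4 to 21.2 counts. Levels of different genes are compared only as FPKM, which also divides by gene length. Human HKDC1 was not analysed here, and the mouse gene Hkdc1 had 0 to 8 counts per library, so the transgene could not be checked. The tissue labels were checked against 10 markers each. Hepatocyte markers summed to 89700 to 134200 CPM in liver and adipocyte markers to 24840 to 38580 CPM in fat, against 129 to 222 CPM for adipocyte markers in liver. Hepatocyte markers were also present in fat, at a summed 2046 to 10750 CPM.

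PPAR alpha is a receptor that binds fatty acids and, paired with RXR, switches on genes for fatty acid uptake and oxidation, most of all in liver between meals. Its targets cover several steps. Cyp4a10 and Cyp4a14 are omega-hydroxylases of the endoplasmic reticulum, Acot1 and Acot2 are acyl-CoA thioesterases of the cytosol and of mitochondria, Cpt1a carries out the step by which long-chain fatty acids enter mitochondria, and Ehhadh is the peroxisomal bifunctional enzyme. Pdk4 phosphorylates pyruvate dehydrogenase and so spares glucose, Fgf21 is a hormone that liver secretes in fasting, and Angptl4 is a secreted inhibitor of lipoprotein lipase. Several of them also answer to glucocorticoids, FOXO factors or, in fat, to other PPARs.

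In null mice the members differed widely in level between the tissues. Per length, Cyp4a10 stood highest in null liver at 353 ± 141 FPKM (SD, n = 3), followed by Cyp4a14 at 271 ± 138, Cpt1a at 179 ± 9.97, Ehhadh at 171 ± 10.1, Angptl4 at 113 ± 20.6, Acot1 at 33.3 ± 9.06, Fgf21 at 8.67 ± 1.33, Acot2 at 5.74 ± 2.09 and Pdk4 at 2.21 ± 0.372. The libraries of neighbours overlapped from Cyp4a10 down to Ehhadh and between Fgf21 and Acot2, and the other neighbours did not overlap. In null fat the order began with Angptl4 at 160 ± 28.2 FPKM and Pdk4 at 67.6 ± 32.9, and then came Cpt1a at 22.2 ± 2.80, Ehhadh at 13.7 ± 2.66, Cyp4a10 at 7.06 ± 6.15, Acot2 at 7.02 ± 1.13, Cyp4a14 at 6.96 ± 6.53, Acot1 at 0.744 ± 0.404 and Fgf21 at 0.700 ± 0.190. Overlap of neighbours in fat ran from Ehhadh to Cyp4a14 and joined Acot1 with Fgf21.

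**Figure D1:**
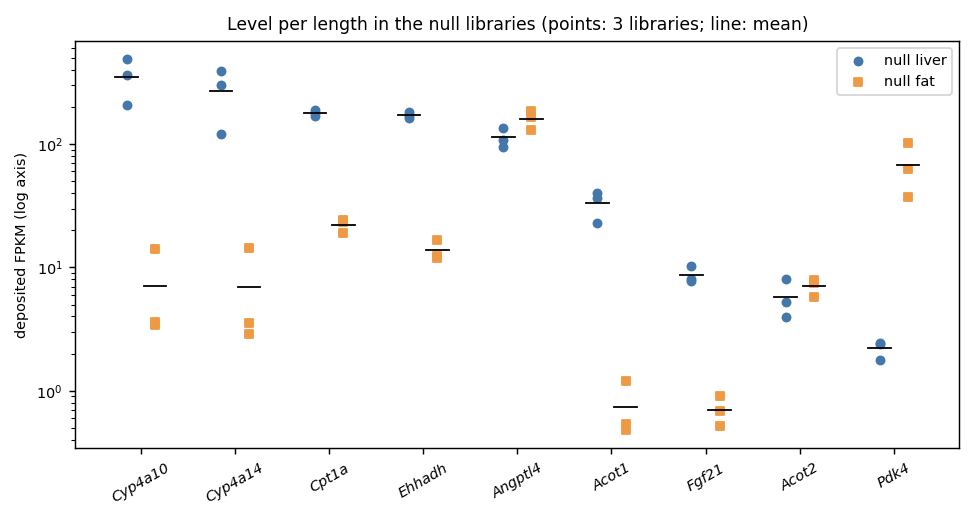
Deposited FPKM (log axis) of the 9 genes in the 3 null liver and 3 null fat libraries, with lines at the means. Of the genes, 6 lie lower in fat, Pdk4 lies higher in fat, and Acot2 and Angptl4 lie close together in both tissues.

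The tissues were compared over the 6 null libraries, a contrast without the transgene, with edgeR's quasi-likelihood test and Benjamini-Hochberg adjustment. These null libraries were also part of the comparisons on which the genes were chosen, so the contrast is not fully independent of that choice. Of the 9 members, 6 were lower in fat and 1 was higher, where 30.5% of the 15259 genes tested were called lower and 33.8% higher. Cyp4a10 was lower in fat by a log2 fold change of -5.71 (SE 0.70, adjusted p = 2.02e-04), Acot1 by -5.54 (SE 0.42, adjusted p = 1.84e-05) and Cyp4a14 by -5.35 (SE 0.78, adjusted p = 5.61e-04). Ehhadh at -3.70 (SE 0.20), Fgf21 at -3.67 (SE 0.34) and Cpt1a at -3.07 (SE 0.18) were also called lower. Pdk4 was the one member called higher in fat, at 4.89 (SE 0.41, adjusted p = 3.16e-05), a mean FPKM 30.6 times that of liver. Skeletal muscle markers summed to 22360, 26950 and 625 CPM in null fat libraries 1, 2 and 3, where Pdk4 was at 63.0, 103 and 37.2 FPKM. What part RNA of muscle has in the level of Pdk4 in fat was not tested. Angptl4 was at 0.44 (SE 0.21, adjusted p = 0.101) and Acot2 at 0.23 (SE 0.28, adjusted p = 0.497), neither past the threshold. Leaving out 1 library gave 0.33 to 0.62 for Angptl4. For Acot2 it gave 0.014 (without null liver library 2) to 0.55 (without null liver library 3). Scaling by library size alone moved the median of all genes to 0.98 on the log2 scale, and both were then called higher, Angptl4 at 1.34 and Acot2 at 1.11, close to that shift. With at least 10 counts required in every library Angptl4 was also called, at 0.59 (adjusted p = 0.0393, edgeR). The receptor itself, Ppara, was at 47.5 ± 5.13 FPKM in null liver and 3.38 ± 0.412 in null fat, a log2 fold change of -3.87 (SE 0.17, adjusted p = 2.29e-06), while Pparg, the PPAR of adipocytes, was at 4.70 ± 0.827 and 45.1 ± 3.37 (3.21, SE 0.17, adjusted p = 4.77e-06).

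Other genes of the pathway were mostly lower in fat too. Of 43 further PPAR alpha targets, 42 were tested. In null fat, where 30.5% of all genes tested were called lower and 33.8% higher, 36 of these targets were called lower and 5 higher. Their median was -2.09 on the log2 scale, against 0.09 over all genes tested. The fitted change was lower for 36 of the 42, against 47.4% of all genes tested. With libraries scaled by size alone it was lower for 30, with the median of all genes at 0.98. Fabp1, the fatty acid binding protein of liver, was at 6891 ± 2465 FPKM in liver and 171 ± 172 in fat (log2 fold change -5.41, SE 0.80, adjusted p = 5.89e-04). Acot3, a peroxisomal thioesterase, was at -5.96 (SE 0.61), Slc27a2, a fatty acid transporter and acyl-CoA synthetase, at -5.70 (SE 0.56) and Acot12, an acetyl-CoA thioesterase, at -5.44 (SE 0.46). Vnn1 was at -2.43 (SE 0.30), and each of these was called lower in fat. Among genes whose products act with the members, Lpl, the lipase that Angptl4 inhibits, was higher in fat at 8.83 (SE 0.54). Fgfr4, a receptor for FGF hormones, was lower in fat at -5.71 (SE 0.33), and Fgfr1, the receptor through which FGF21 acts in fat, was higher at 4.54 (SE 0.16).

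Promoter sequences are shown as a description, since Acot1 and Acot2, neighbours on chromosome 12, differ in tissue pattern. They are RefSeq sequences on GRCm38.p6 and cover the 250 bases before the start. An entry was found for 6 members (Acot1, Acot2, Pdk4, Fgf21, Cpt1a and Ehhadh) and not for Cyp4a10, Cyp4a14 and Angptl4. The motif of PPAR with RXR, called DR1, is a pair of AGGTCA copies with 1 base between them. Searched on both strands of windows that reach from 250 bases before to 50 after the start, it was in 0 of the 6 promoters and in 0.0396% of all 32851, and a DR1 with at most 2 letters different was in 0 of 6 and in 3.86%. A single AGGTCA, which each DR1 also holds, was in 1 of 6, Cpt1a, and in 16.3% of all. Of the further targets, 34 had an entry and 7 held the looser DR1, among them Acot4. CCAAT, a common promoter element that can share at most 1 base with AGGTCA, was in 5 of 6 and in 37.4%, and TATAAA was in 1 of 6, Fgf21, and in 13.6%. In the lines below capitals mark AGGTCA or its reverse, the looser DR1 of Acot4, and CCAAT or its reverse.
Cpt1a, chr19:3323051-3323300, plus strand: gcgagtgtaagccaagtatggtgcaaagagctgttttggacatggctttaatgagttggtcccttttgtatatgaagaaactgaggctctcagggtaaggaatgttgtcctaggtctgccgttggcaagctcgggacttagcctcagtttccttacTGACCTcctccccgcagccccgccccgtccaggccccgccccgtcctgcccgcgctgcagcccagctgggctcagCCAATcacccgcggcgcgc
Acot1, chr12:84009252-84009501, plus strand: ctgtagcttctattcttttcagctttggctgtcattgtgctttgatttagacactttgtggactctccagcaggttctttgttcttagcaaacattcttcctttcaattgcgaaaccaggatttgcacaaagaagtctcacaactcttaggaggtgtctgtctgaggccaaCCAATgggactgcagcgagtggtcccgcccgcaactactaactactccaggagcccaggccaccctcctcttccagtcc
Acot2, chr12:83987611-83987860, plus strand: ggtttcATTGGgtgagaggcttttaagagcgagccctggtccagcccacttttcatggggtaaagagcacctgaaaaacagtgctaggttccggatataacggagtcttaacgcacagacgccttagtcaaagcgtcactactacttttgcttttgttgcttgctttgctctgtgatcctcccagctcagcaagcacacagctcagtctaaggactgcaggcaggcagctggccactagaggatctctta
Acot4, chr12:84038129-84038378, plus strand: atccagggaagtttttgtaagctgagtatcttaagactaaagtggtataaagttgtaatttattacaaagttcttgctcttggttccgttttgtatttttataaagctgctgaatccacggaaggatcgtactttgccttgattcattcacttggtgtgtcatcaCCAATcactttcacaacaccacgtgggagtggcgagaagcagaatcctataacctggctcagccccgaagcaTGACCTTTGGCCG
In Cpt1a the AGGTCA lay 94 to 89 bases before the start on the other strand, and in Acot4 the looser DR1 took the last 13 bases. RefSeq starts Acot1 downstream of its start in the files, so the last printed bases of Acot1 lie inside the gene as placed below. Counted from the RefSeq start, the CCAAT of Acot1 lay 79 to 75 bases before the start and that of Acot2, on the other strand, 244 to 240 bases before it. A match says only that the letters are present. A count of 0 among 6 promoters says little for a motif that so few of all promoters hold. Sites outside these windows were not searched.

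In liver, the fitted change of all 9 members was toward a lower level in hHKDC1 OE mice, where 48.9% of the 13351 genes tested were lower. Log2 fold changes ran from -2.21 for Cyp4a14 to -0.30 for Fgf21 and Cpt1a, with a median of -1.58 against 0.01 over all genes tested. In 6 members the 3 hHKDC1 OE libraries all lay below the 3 null libraries (Cyp4a10, Acot1, Acot2, Pdk4, Angptl4 and Ehhadh), which held for 6.18% of all genes tested. These counts and shares stand side by side and nothing is read from them, because this contrast was among the results on which the genes were chosen. In bulk tissue, fewer cells of a type and less RNA per cell cannot be told apart.

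**Figure D2:**
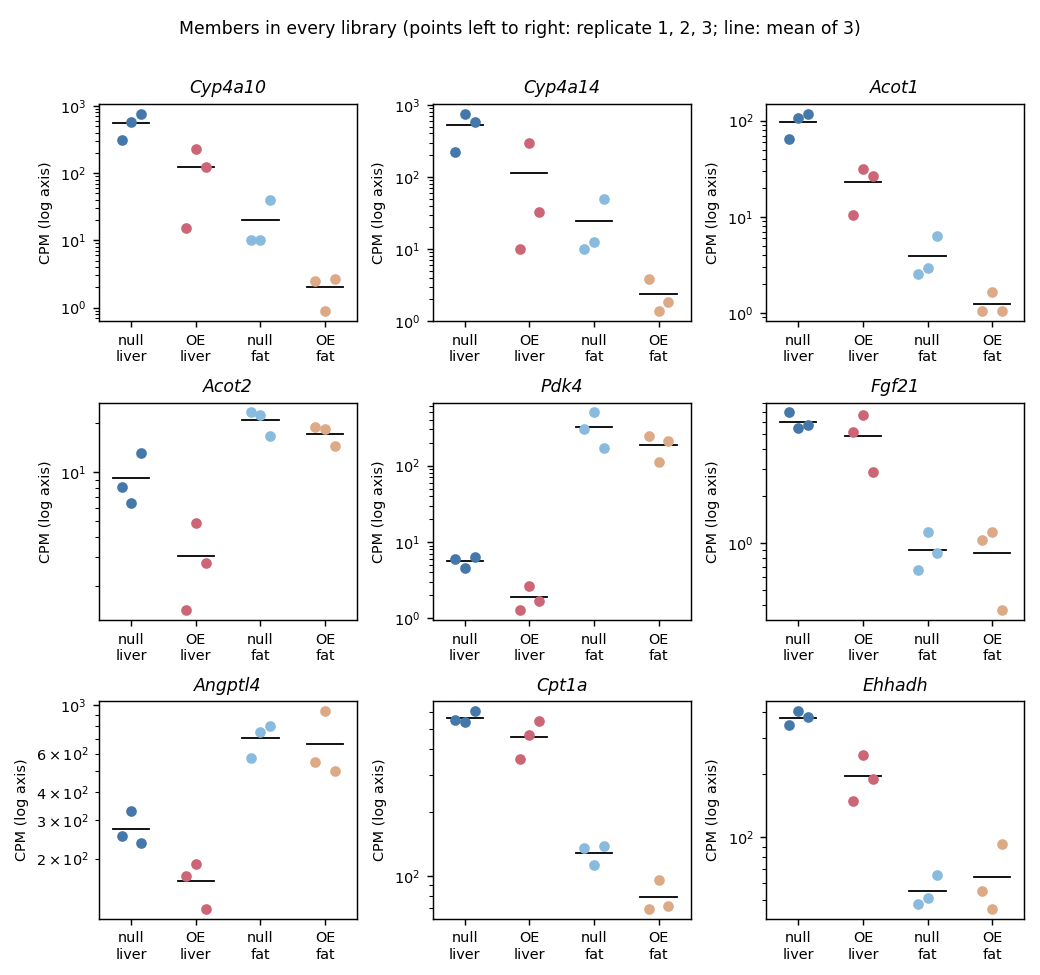
CPM (log axis) of each member in all 12 libraries, with a line at the mean of the 3 libraries of a group. In liver the 3 hHKDC1 OE points lie below the 3 null points for 6 of the 9 genes, and in fat for 4.

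In the full fit the omega-hydroxylases had the largest fitted differences and the widest spread. Leaving out hHKDC1 OE liver library 1 put Acot1 (-1.72) ahead of Cyp4a10 (-1.64) and Cyp4a14 (-1.67), as did leaving out library 3 of that group. Cyp4a10 (chromosome 4, 115518264 to 115533649, plus strand, GRCm38) stood at 311, 569 and 768 CPM in null liver and at 15.3, 228 and 124 CPM in hHKDC1 OE liver. Its groups did not overlap, but hHKDC1 OE library 1 lay far below the others and the highest hHKDC1 OE library was 14.96 times the lowest. The log2 fold change was -2.17 (SE 0.74). Cyp4a14 (chromosome 4, 115486200 to 115496142, minus strand) was at 223, 754 and 581 CPM in null and at 9.90, 295 and 32.1 CPM in hHKDC1 OE liver. Here hHKDC1 OE library 2 exceeded the lowest null library, so the groups overlapped, and the log2 fold change was -2.21 (SE 1.00). Near copies of Cyp4a10 were measured beside them. Cyp4a31 was at 12.01 ± 7.94 CPM in null and 4.82 ± 2.44 in hHKDC1 OE liver, and Cyp4a32 at 40.2 ± 12.8 and 29.0 ± 9.56, with overlapping groups in both. Of the 75-base windows of the Cyp4a10 transcript in GENCODE release M21, 14.8% occur in Cyp4a32, 9.09% in Cyp4a31 and 0% in Cyp4a14. Part of the Cyp4a10 reads could thus be lost or placed on a copy in the counting, which was not tested. The study's read pairs are longer than these windows, so the shares are no measure of the reads affected.

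The thioesterases lie side by side on chromosome 12, and both were lower in every hHKDC1 OE liver library than in any null library. Acot1 (84009490 to 84018371, plus strand) was at 64.5, 106 and 118 CPM in null and at 10.4, 31.8 and 26.8 CPM in hHKDC1 OE liver, a log2 fold change of -2.06 (SE 0.38). Acot2 (83987861 to 83993873, plus strand) was at 8.15, 6.45 and 13.2 CPM in null and at 1.41, 4.89 and 2.77 CPM in hHKDC1 OE liver, which is -1.61 (SE 0.43) and rests on 23 to 213 counts per library. Of the 75-base windows of Acot1, 14.8% also occur in Acot2, and of those of Acot2, 20.5% occur in Acot1. The neighbour Acot4, a peroxisomal thioesterase, was at 128, 82.9 and 101 CPM in null and at 24.04, 65.3 and 37.0 CPM in hHKDC1 OE liver (-1.30, SE 0.32). Acot3 was at 39.3, 14.7 and 25.2 CPM and at 1.17, 15.9 and 1.65 CPM, with overlap (-2.07, SE 0.81).

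The oxidation enzymes were the steadiest members in null liver. Ehhadh (chromosome 16, 21761287 to 21787807, minus strand) was at 347, 402 and 376 CPM in null and at 150, 249 and 191 CPM in hHKDC1 OE liver, without overlap, a log2 fold change of -0.93 (SE 0.20). Cpt1a (chromosome 19, 3323301 to 3385732, plus strand) was at 552, 536 and 606 CPM in null and at 361, 466 and 547 CPM in hHKDC1 OE liver. The highest hHKDC1 OE library of Cpt1a passed the lowest null library, and the difference of -0.30 (SE 0.18) was the smallest among the enzymes. Leaving out 1 library moved it to between -0.45 (without hHKDC1 OE liver library 3) and -0.16 (without hHKDC1 OE liver library 1).

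Pdk4 (chromosome 6, 5483351 to 5496309, minus strand) was low in liver, at 5.99, 4.63 and 6.45 CPM in null and 1.29, 2.66 and 1.71 CPM in hHKDC1 OE libraries. These come from 71 to 104 and from 21 to 50 counts, the groups did not overlap, and the log2 fold change was -1.58 (SE 0.33). With limma on log2(FPKM + 1), a scale that understates changes of low genes, it was -0.91. Of the secreted proteins, Angptl4 (chromosome 17, 33773750 to 33781575, minus strand) was at 254, 330 and 235 CPM in null and at 166, 188 and 118 CPM in hHKDC1 OE liver, without overlap (-0.79, SE 0.21). Fgf21 (chromosome 7, 45613886 to 45615490, minus strand) was at 6.92, 5.47 and 5.70 CPM in null and at 5.17, 6.65 and 2.88 CPM in hHKDC1 OE liver. Its groups overlapped, and -0.30 (SE 0.31) was within the spread. It was at -0.59 without hHKDC1 OE liver library 2, at -0.03 without library 3 of that group and at -0.19 without null liver library 1. On the GENCODE M21 models, 0 of the 9 genes shared exon bases with another gene on either strand.

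Most members ranked the hHKDC1 OE liver libraries alike. Of these libraries, library 1 held the lowest value of 7 members and library 2 the highest of 8. Library 1 is the one whose labels all read overexpression. Against the 3 null libraries alone, it gave log2 fold changes of -5.17 for Cyp4a10, -5.71 for Cyp4a14, -3.21 for Acot1, -1.33 for Ehhadh, -2.70 for Acot2, -2.13 for Pdk4, -0.72 for Angptl4, -0.64 for Cpt1a and -0.22 for Fgf21, in a fit that assumes a single library to vary like the null group. Without hHKDC1 OE library 2, Cyp4a14 was at -4.62 (edgeR) in place of -2.21. Across the 6 liver libraries, the 5 genes outside the set that lay nearest to the members' mean profile, by root mean square distance of z-scored log2 CPM, were 5730414N17Rik (0.132), Crat (0.150), Hnrnpa3 (0.157), Fmo1 (0.163) and Cd34 (0.171). Among the members, Ehhadh was nearest to it at 0.158 and Fgf21 farthest at 0.825.

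With edgeR, 0 of the 13351 genes tested in liver passed an adjusted p of 0.05 (0%), and so 0 of the 9 members. The unadjusted p was under 0.05 for 927 genes (6.94%), 6 of them members. DESeq2, the tool named in the study's methods, called 94 of 12768 genes (0.736%), of which 5 were members (Acot1, Acot2, Pdk4, Angptl4 and Ehhadh). Without hHKDC1 OE library 2, edgeR called 146 of 13587 genes (1.07%), again with 5 members, and those were Cyp4a14, Acot1, Acot2, Pdk4 and Ehhadh. These counts describe the contrast on which the genes were chosen, and are no test of the members.

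**Figure D3:**
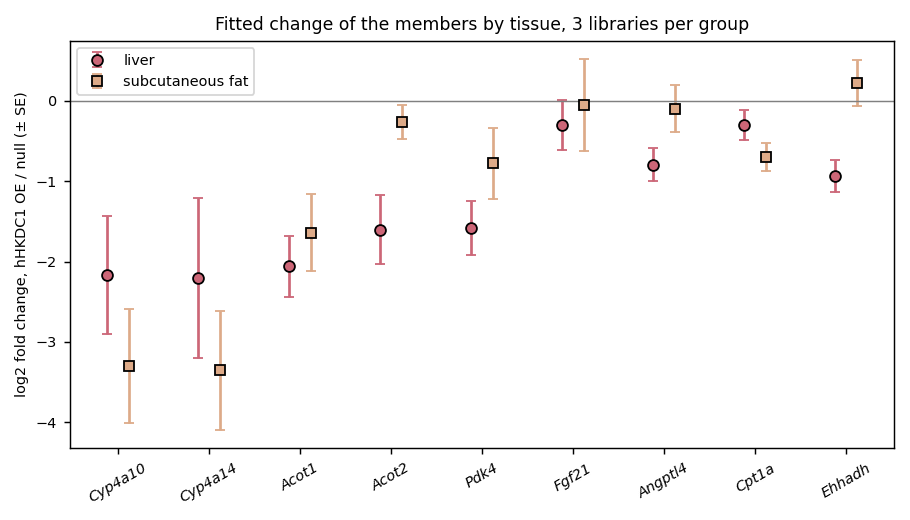
Fitted log2 fold change of hHKDC1 OE against null with its SE for each member, in liver (circles) and subcutaneous fat (squares), 3 libraries per group. In liver all 9 points lie below 0, and in fat Ehhadh lies above it.

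Further genes of the pathway were counted in the same liver fit. Of the 43 further PPAR alpha targets, 42 were tested and Acot5, at 0 counts in all liver libraries, was not. The fitted change was lower for 40 and higher for 2, with a median of -0.43, and 18 had groups that did not overlap, all of them lower, where 48.9% of all genes tested had a lower fitted change and 6.18% were lower without overlap. By edgeR 0 passed the adjusted threshold, 17 had an unadjusted p under 0.05 (6.94% of all genes), and DESeq2 called 4 (0.736% of all genes). This list too was chosen with earlier results known. The smallest p-values belonged to Plin5, a lipid droplet coat protein, at 106 ± 20.9 CPM in null and 54.5 ± 11.3 CPM in hHKDC1 OE liver (-0.96, SE 0.20), to Crat, carnitine acetyltransferase, at 74.2 ± 8.23 and 37.8 ± 11.0 CPM (-0.97, SE 0.21), and to Acot4, given above. Fabp1 was at 2810 ± 1058 and 1872 ± 985 CPM (-0.59, SE 0.40) and Vnn1 at 65.4 ± 8.08 and 41.1 ± 18.8 CPM (-0.67, SE 0.31), each with overlapping groups.

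Genes for the receptors and for neighbouring programmes gave a mixed picture in liver. Ppara was at 143, 137 and 121 CPM in null and at 88.9, 107 and 108 CPM in hHKDC1 OE liver, without overlap (-0.40, SE 0.15). Lpin1, a phosphatidate phosphatase that also acts as a coactivator of PPAR alpha, was at 697, 966 and 812 CPM and at 300, 469 and 218 CPM, also without overlap (-1.33, SE 0.27). Of the 15 receptors and coregulators, however, 10 were higher, and their median was 0.05. The 15 fasting genes of gluconeogenesis and of FOXO or cAMP signalling had 10 lower and 5 higher, with a median of -0.16. The gene with the smallest p there, Nr4a1, was higher at 1.62 ± 1.51 and 20.5 ± 30.2 CPM with overlap. The 12 lipogenic genes of the fed state had 8 lower and a median of -0.43, led by Thrsp at 1172 ± 451 and 606 ± 189 CPM. The 11 tested glucocorticoid response genes had 10 lower and a median of -0.58, Fkbp5 being at 150.0 ± 28.8 and 62.0 ± 36.0 CPM and Cdkn1a at 16.1 ± 14.8 and 1.76 ± 0.870 CPM. Lcn2, also an acute phase gene, was the exception at 10.2 ± 9.53 and 369 ± 326 CPM. Among 12 clock genes 7 were lower, and Cry1 was at 17.03 ± 1.51 and 8.42 ± 1.88 CPM. Of the 18 tested partners of the members, such as their receptors, lipases and the pyruvate dehydrogenase enzymes, 14 were lower with a median of -0.16, and Fgfr1 was at 6.12 ± 0.796 and 8.57 ± 1.25 CPM (0.49, SE 0.21). With edgeR, 0 genes of these lists passed the adjusted threshold.

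**Figure D4:**
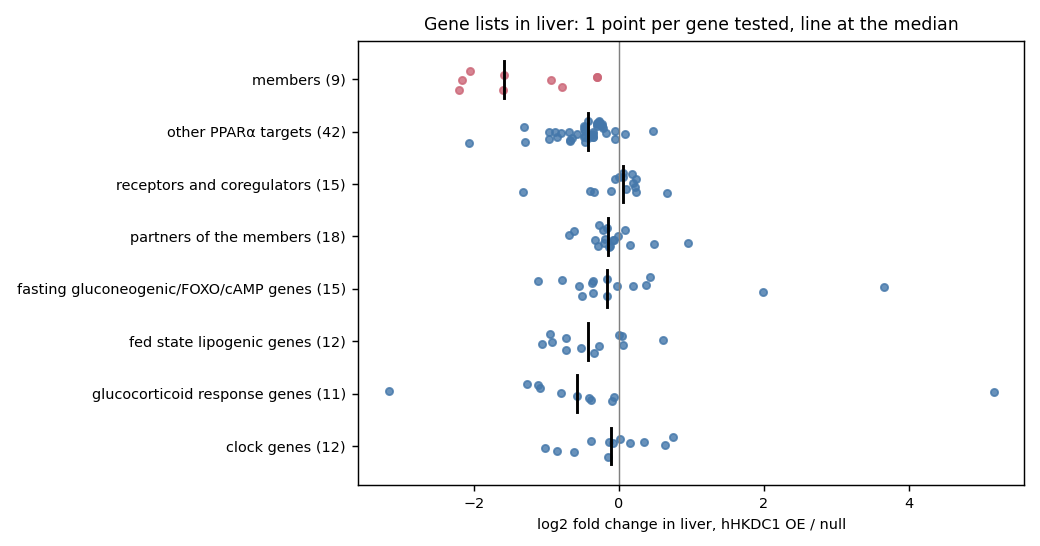
Log2 fold change in liver of each tested gene of 8 lists (number of genes in brackets), with a line at the median. The members have a median of -1.58, the further PPAR alpha targets -0.43 and the receptors and coregulators 0.05.

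Cell markers also differed between the liver groups. The 10 hepatocyte markers summed to 130700 to 134200 CPM in null and 89700 to 116500 CPM in hHKDC1 OE liver. Of the 10, 6 were lower and 4 higher with a median of -0.23, and the largest of them, the serum albumin gene Alb, was at 71234 ± 3393 and 46249 ± 7093 CPM. The 8 macrophage markers summed to 133 to 202 CPM and 196 to 380 CPM, with 3 of 8 higher and without overlap (Lyz2, Cd68 and Clec4f, against 6.31% of all genes tested). Adipocyte markers summed to 151 to 209 CPM and 129 to 222 CPM, with Retn at 0 in hHKDC1 OE liver, skeletal muscle markers to 21.7 to 33.5 and 21.2 to 38.6 CPM, B cell markers to 0.988 to 4.40 and 1.81 to 3.63 CPM, and T cell markers to 3.09 to 9.18 and 3.32 to 4.64 CPM. Set against Alb rather than the whole library, Acot1 stayed apart at 0.859 to 1.71 counts per 1000 Alb counts in null and 0.206 to 0.703 in hHKDC1 OE liver. Pdk4 also did, at 0.0664 to 0.0935 and 0.0256 to 0.0529. The groups of Ehhadh (4.62 to 5.78 and 2.97 to 5.01), Angptl4 (3.38 to 4.74 and 3.10 to 3.74), Cyp4a10 (4.14 to 11.1 and 0.303 to 4.53) and Acot2 (0.0926 to 0.192 and 0.0281 to 0.0972) overlapped on that scale. Cpt1a (7.34 to 8.78 and 7.16 to 14.4) and Fgf21 (0.0786 to 0.0921 and 0.0757 to 0.132) also overlapped and reached their highest values in hHKDC1 OE liver. What part these marker differences have in the members' values was not tested.

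In fat, which is not the target of the vector's promoter, 8 of the 9 members had a lower fitted level in hHKDC1 OE mice and Ehhadh a higher one, with 53.9% of the 16380 genes tested being lower. With libraries scaled by size alone 6 were lower, Angptl4 being at 0.06 and Fgf21 at 0.11, with the median of all genes at 0.11. Leaving out 1 library gave 7 or 8 lower, and Ehhadh was at -0.13 without hHKDC1 OE fat library 3. The median was -0.70 against -0.05 over all genes tested, and without null fat library 2 it was -0.37. In 4 members (Cyp4a10, Cyp4a14, Acot1 and Cpt1a) the hHKDC1 OE libraries all lay below the null libraries, as in 10.2% of all genes tested, and again nothing is read from these counts. EdgeR called 0 of the 16380 genes (0%) and 0 members, 2903 genes (17.7%) including 4 members had an unadjusted p under 0.05, and DESeq2 called 1446 of 19395 (7.46%), with Cyp4a10, Cyp4a14 and Acot1 among them. Leaving out hHKDC1 OE fat library 2 gave 3251 calls with edgeR, or 18.9% of the 17190 tested, 3 of them members (Cyp4a10, Cyp4a14 and Cpt1a).

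Cyp4a10, Cyp4a14 and Acot1 had the largest fitted differences in fat, at low levels. Cyp4a10 was at 10.2, 9.98 and 39.4 CPM in null and at 2.51, 0.880 and 2.64 CPM in hHKDC1 OE fat, a log2 fold change of -3.31 (SE 0.71). Cyp4a14 was at 10.1, 12.7 and 49.8 CPM in null and at 3.84, 1.37 and 1.84 CPM in hHKDC1 OE fat (-3.35, SE 0.74). Acot1 was at 2.55, 2.91 and 6.26 CPM in null and at 1.04, 1.66 and 1.05 CPM in hHKDC1 OE fat (-1.64, SE 0.48), from 17 to 117 counts. Null library 3 was the highest in all of these, and without it Cyp4a10 was at -2.36, Cyp4a14 at -2.30 and Acot1 at -1.14. With limma on log2(FPKM + 1) the 3 genes were at -2.03, -2.00 and -0.48. Acot1 was then smaller in size than Pdk4 at -0.76 and Cpt1a at -0.72.

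The same library also had the most albumin RNA. Alb stood at 28927, 28069 and 89742 counts in null fat and at 24363, 8463 and 10517 counts in hHKDC1 OE fat. Per 1000 counts of Alb, Cyp4a10 was at 4.14 to 11.1 in null liver and 5.74 to 8.21 in null fat, and Cyp4a14 at 2.97 to 10.8 in null liver and 5.74 to 10.4 in null fat. In hHKDC1 OE mice Cyp4a10 was at 0.303 to 4.53 in liver and 2.13 to 4.09 in fat, and Cyp4a14 at 0.197 to 5.86 and 2.85 to 3.32. For both genes, then, the ratio to Alb in fat lay within the range of liver under the same vector. Acot1 was within it in null mice (0.859 to 1.71 in liver, 1.30 to 1.67 in fat) and above it in hHKDC1 OE mice (0.206 to 0.703 and 0.903 to 4.02). For the other 6 members the ratio in fat was above every liver value, for example 28.8 to 76.7 against 7.34 to 8.78 for Cpt1a and 166 to 432 against 3.38 to 4.74 for Angptl4 in null mice. The hepatocyte markers, 10 of 10 lower in hHKDC1 OE fat with a median of -1.37, summed to 4170 to 10750 CPM in null and 2046 to 3281 CPM in hHKDC1 OE fat. How much of the fat signal of Cyp4a10, Cyp4a14 and Acot1 is RNA of liver origin was not tested.

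**Figure D5:**
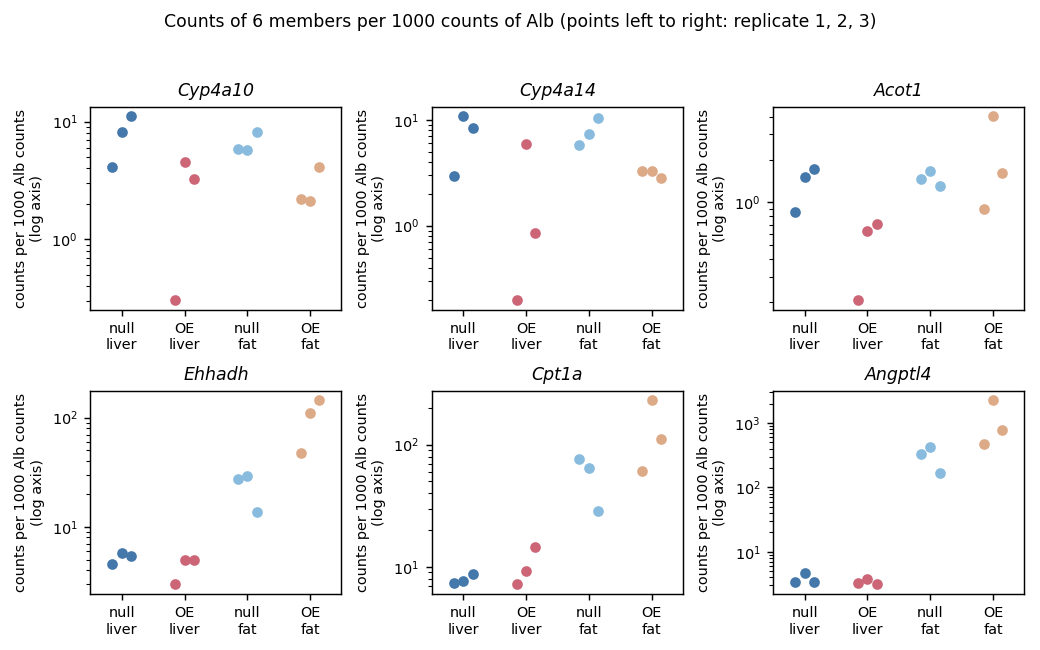
Counts of 6 members per 1000 counts of Alb (log axis) in each library. In fat, Cyp4a10 and Cyp4a14 lie within the range of liver under the same vector, whereas Ehhadh, Cpt1a and Angptl4 lie above all liver libraries.

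The other 6 members had smaller fitted differences in fat. Cpt1a was at 135, 113 and 138 CPM in null and 69.7, 95.7 and 72.3 CPM in hHKDC1 OE fat, without overlap (-0.70, SE 0.18). Pdk4 was at 299, 496 and 172 CPM in null and 243, 110 and 212 CPM in hHKDC1 OE fat, and the groups overlapped (-0.78, SE 0.44, and -0.37 without null fat library 2). Angptl4 was at 572, 752 and 799 CPM and at 551, 936 and 499 CPM (-0.10, SE 0.29), and Acot2 at 23.4, 22.5 and 16.6 CPM and at 19.0, 18.4 and 14.6 CPM (-0.27, SE 0.21). Both overlapped between the groups. Ehhadh was at 47.9, 51.3 and 66.0 CPM in null and 55.1, 45.3 and 92.9 CPM in hHKDC1 OE fat (0.23, SE 0.28). Fgf21 had only 6 to 24 counts per fat library, at 0.669, 1.18 and 0.856 CPM in null and 1.04, 1.17 and 0.369 CPM in hHKDC1 OE fat (-0.05, SE 0.57), and the groups overlapped. Of these 6, leaving out 1 library kept the sign of Cpt1a (-0.87 to -0.62), Pdk4 (-1.11 to -0.37) and Acot2 (-0.42 to -0.15) and turned it for Angptl4 (-0.44 to 0.07), Ehhadh (-0.13 to 0.41) and Fgf21 (-0.34 to 0.30). Angptl4 was lowest and Ehhadh highest without hHKDC1 OE fat library 2, and Angptl4 and Fgf21 were highest without library 3 of that group.

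Of the further PPAR alpha targets, 41 were tested in fat, 31 were lower, and 9 were lower and 1 higher without overlap, with a median of -0.26. Over all genes tested these shares were 53.9%, 10.2% and 12.5%. With libraries scaled by size alone, 23 were lower. By edgeR 0 were called, 7 had an unadjusted p under 0.05 (17.7% of all genes), and DESeq2 called 2 (7.46% of all genes). Abcd3, a peroxisomal membrane transporter, was at 139 ± 10.8 CPM in null and 99.8 ± 6.84 CPM in hHKDC1 OE fat (-0.47, SE 0.14), without overlap. Ppara was at 17.5 ± 2.36 and 14.1 ± 4.99 CPM, Fabp1 at 126 ± 124 and 34.7 ± 22.4 CPM and Vnn1 at 23.1 ± 9.12 and 23.6 ± 19.5 CPM, all with overlap. Lpin1 was lower without overlap here too, at 869 ± 132 and 362 ± 85.8 CPM (-1.26, SE 0.24). Of the 15 fasting genes 14 were lower with a median of -0.57, Foxo1 being at -0.75 (SE 0.16), and of the 11 tested glucocorticoid response genes 10 were lower with a median of -0.76, Fkbp5 being at -1.59 (SE 0.42). The medians were -0.36 for the clock genes, -0.15 for the lipogenic genes, -0.14 for receptors and coregulators and -0.06 for the partners, and edgeR called 0 genes of these lists. Markers of other cells also differed between the fat groups. The 10 B cell markers summed to 2.17 to 4.23 CPM in null and 56.8 to 1003 CPM in hHKDC1 OE fat and were 10 of 10 higher without overlap (12.5% of all genes tested were), T cell markers summed to 7.88 to 20.3 and 48.2 to 697 CPM, and macrophage markers to 240 to 512 and 732 to 1229 CPM. Skeletal muscle markers ran from 625 to 26950 CPM in null and from 1223 to 18370 CPM in hHKDC1 OE fat, and adipocyte markers from 28070 to 38580 and from 24840 to 35370 CPM. Their part in the members' values was not tested.

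The difference between the effects in fat and in liver was fitted over all 12 libraries. EdgeR called 0 of 17070 genes (0%), 2163 (12.7%) had an unadjusted p under 0.05, 2 of them members, and DESeq2 called 497 of 17266 (2.88%), 0 of them members. The members' differences, the log2 fold change in fat minus that in liver, ran from -1.06 (SE 1.14) for Cyp4a10 to 1.43 (SE 0.53) for Acot2, with Ehhadh at 1.24 (SE 0.38), Pdk4 at 0.89 (SE 0.57) and Angptl4 at 0.77 (SE 0.38). For Cyp4a10 and Cyp4a14 the sign turned with limma on FPKM, to 0.72 and 1.26, and with hHKDC1 OE library 1 alone, to 2.25 and 3.12. Leaving out 1 library moved 8 of the 9 differences by more than 1.5 times. Without null fat library 3, Cyp4a10 was at -0.25, Cyp4a14 at -0.12 and Pdk4 at 0.42, and Acot1, at 0.50 (SE 0.63) in the full fit, was at 0.88. Without hHKDC1 OE liver library 2, Cyp4a10 was at -0.27 and Cyp4a14 turned to 1.33. Without hHKDC1 OE fat library 2, Angptl4 was at 0.23, Acot1 at 0.02, Cpt1a at -0.69 in place of -0.32, and Fgf21 at -0.14 in place of 0.34. Ehhadh was at 0.73 without hHKDC1 OE fat library 3. Acot2 ranged from 1.09 to 1.93. With limma, Pdk4 was at 0.15 and Acot1 at 1.55. These values are a description too, as both contrasts were known when the genes were chosen.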

How the data were processed

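RNA-seq libraries of mouse liver and subcutaneous fat were used, 3 per group. The authors mapped paired-end reads from libraries without strand information (STAR, version 2.5 in the submitters' notes), took gene counts with HTSeq 0.6.1, and the deposited table holds whole-number counts without normalization. The methods name the human genome, whereas identifiers and positions are mouse, GRCm38. The deposited FPKM are the authors' counts per gene length and library scale. Deposited log2 fold changes and p-values of the authors' own comparisons, and group means of FPKM, were not used.

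From the counts, edgeR 4.0.16 (R 4.3.3) fitted each tissue, the null libraries and the interaction with TMM, filterByExpr, the quasi-likelihood test and Benjamini-Hochberg adjustment over all genes tested, at 0.05. SE is the log2 fold change divided by the square root of its F statistic. The members, the lists and the tests were chosen with earlier results of these data known, and CCAAT and TATAAA were added after seeing the promoters. Named are all members, Ppara, Vnn1 and Fabp1, of each other list up to 4 genes past the threshold or else up to 3 of smallest p, and the 5 genes nearest in profile, and some genes that this rule names are not reported here. Cyp4a31, Cyp4a32 and, in liver, Acot3, near relatives of members, were named after their values were seen. Each fit was tested on simulated data, in which DESeq2 made more true and more false calls than edgeR in each comparison. Alternatives were DESeq2 1.42.0, other scalings and filters, limma 3.58.1 on log2(FPKM + 1) where FPKM averaged 0.1 or more, 12 libraries in 1 fit, a replicate block, each library left out, and hHKDC1 OE library 1 alone, the last chosen after seeing the data. Replicates were compared only to look for a library deposited under more than one label, and none was found (chi-square per gene of 19.8 to 154 between pairs). The planned comparison of protein sequences was not run.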

Additional observations from a re-analysis of the deposited data

Results flagged for a closer look

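Acot8, a peroxisomal thioesterase among the further PPAR alpha targets, was the 1 gene of the 165 listed genes tested in both tissues whose groups did not overlap in either tissue and lay in opposite directions (0.606%). Over all 12763 genes tested in both tissues, 139 did (1.09%), so the lists held no larger share than all genes, and Acot8 was singled out after its values were seen. In liver it was at 18.5, 18.7 and 19.7 CPM in null and 12.7, 16.2 and 15.3 CPM in hHKDC1 OE mice, a log2 fold change of -0.37 (SE 0.16), and in fat at 9.55, 9.74 and 10.7 CPM and 12.7, 10.9 and 12.7 CPM, a log2 fold change of 0.27 (SE 0.20). The interaction, fitted on the same values that singled it out, was 0.72 (SE 0.22), which did not pass edgeR's adjusted threshold (adjusted p = 0.204).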

How the results depend on the processing

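Under each alternative the members' medians kept their sign. In liver the 9 members were lower in every alternative fit (ratios to Alb are not among these), and leaving out a library gave a median of -1.91 to -1.26, 0 to 146 genes called, 0 to 5 members and 0 to 4 further targets, the calls coming without hHKDC1 OE liver library 2. DESeq2 called 94 of 12768 genes, 5 members and 4 further targets, and library size alone called 2 of 13351 genes. No filter on low counts called 327 of 24792 genes, 7 members and 11 further targets. Its smallest adjusted p was 1.95e-175 (edgeR), against 0.0573 in the main fit. It also called Cyp4a14, whose groups overlap, so nothing is read from its calls. limma called 3 with a median of -0.98. hHKDC1 OE library 1 alone gave 76 genes, 4 members, 5 further targets and a median of -2.13. In fat, DESeq2 called 1446 genes, 3 members and 2 further targets, no filter 803 genes and 2 members, the 12 libraries in 1 fit 876 genes, limma 1, and hHKDC1 OE library 1 alone 1024. Leaving out a fat library gave a median of -0.69 to -0.37, lowest in size without null library 2, 0 to 3251 genes, 0 to 3 members and 0 to 4 further targets, with 2 genes without null library 3 and 3251 without hHKDC1 OE library 2. In the tissue contrast the members' median of -3.67 was -2.78 by library size alone and -2.96 with limma. For the interaction, DESeq2 called 497 genes, no filter 479, hHKDC1 OE library 1 alone 126 with a median of 1.39, and leaving out a library 0 to 1211 with a median of 0.02 to 0.90, the most genes and the smallest median without hHKDC1 OE fat library 2. The cause was not tested. Judging overlap on FPKM gave the same 6 members in liver and 4 in fat. Of the 6 member promoters, 0 held the looser DR1 and 0 the exact one, against 3.86% and 0.0396% of all promoters.

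The replicate numbers were not taken to pair the libraries, since deviations of same-numbered libraries correlated at 0.193, 0.189 and 0.0893 in liver and 0.0424, -0.131 and 0.0513 in fat, and those of same-numbered liver and fat libraries at 0.267, 0.0472 and 0.143 in null and 0.0239, 0.063 and 0.0513 in hHKDC1 OE mice. Each library correlated best with its own number between the liver groups and between null liver and null fat, but not between the fat groups or between hHKDC1 OE liver and fat, a hint from the data and not from the design. With the replicate number as a block, 17 of 13351 genes and 1 member, Acot1, were called in liver and 168 of 16380 genes in fat. In the contrast of null fat with null liver the block called 9938 of 15259 genes and the same 7 members. For the interaction it called 0 genes, with Cyp4a10 at -0.60 and Cyp4a14 at -0.26.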
